A study of Homo sapiens with 12 samples.

Results

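The genes described here are 50 genes of mitosis and the G2/M phase, chosen by name for their part in chromosome segregation, mitotic entry and cell division. Earlier results of these data were known when these genes were chosen. Each was read by 1 probe set, a group of short DNA probes on the array designed against the RNA of a gene. Only probe sets annotated with a single gene symbol were used, and the one with the highest mean over the 12 arrays stood for the gene. By its type, the probe set of 27 of the 50 genes can also bind related transcripts. All 50 genes had such a probe set, out of 19775 genes in all, and all 50 were bright enough to be among the 9888 genes tested. Their mean levels ran from 8.30 to 14.37 with a median of 11.84, where a level is log2(signal + 16).

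The arrays held total RNA of the human diffuse large B-cell lymphoma lines Pfeiffer and OCI-Ly7, both of the germinal centre B-cell type. The groups were Pfeiffer with BCL6 siRNA, Pfeiffer with a non-target control, OCI-Ly7 with BCL6 siRNA and OCI-Ly7 with a non-target control, with 3 arrays each, and RNA was taken 48 h after a transient transfection. BCL6 is a transcriptional repressor that germinal centre B cells need. The study asked what its knock-down does to gene expression. The sample titles call the Pfeiffer control an shRNA, while the sample descriptions call it an siRNA. For OCI-Ly7 the control titles say siRNA. If the titles hold, the kind of control cannot be told apart from BCL6 knock-down in Pfeiffer, nor from line where the lines are compared. Each line is a single established line, the siRNA sequence is not given in the sources used here. Whether the 3 arrays of a group stem from separate cultures is not stated in the labels. The p-values measure only how far these samples scatter, a scatter that may be technical, and the number of arrays limits their precision.

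BCL6 itself fell by 0.96 ± 0.08 in Pfeiffer and by 0.42 ± 0.08 in OCI-Ly7 (log2, SE, n = 3 arrays a group; limma adjusted p = 5.31e-07 and 0.00731). All 5 B-cell markers measured passed the filter on dim genes, and 4 of them were lower after siRNA in Pfeiffer while 2 were higher in OCI-Ly7. Their summed signal was 14.84 to 15.03 (log2) on the Pfeiffer siRNA arrays, against 15.43 to 15.44 on the Pfeiffer controls, and 15.86 to 15.88 with siRNA, against 15.59 to 15.66, in OCI-Ly7. The part of that shift in the results was not tested. The 10 T-cell and myeloid markers had group means between 4.38 and 7.18, and none passed the filter, whose lowest level was 7.91. The 3 fibroblast markers had group means between 4.79 and 8.64. Of these, 1 passed the filter, with changes of 0.24 in Pfeiffer and -0.05 in OCI-Ly7 that were not called. Pfeiffer siRNA replicate 3 stood apart from the other Pfeiffer arrays in its 3' to 5' log2 ratio of GAPDH, at -0.03, against -0.13 to -0.09. The median difference over all genes between any array and the control mean of its line lay between -0.01 and 0.03.

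At the entry into mitosis, CDK1 bound to cyclin B is switched on by CDC25 phosphatases, chromosomes condense, and kinetochores built on the centromeres attach to spindle microtubules. The spindle checkpoint holds back the anaphase promoting complex until every kinetochore is attached, after which the complex marks securin and the cyclins for destruction and the cell divides. Most of these genes are transcribed late in the cell cycle, through promoter elements bound by the DREAM and B-MYB-MuvB complexes, NF-Y and FOXM1. Germinal centre B cells and the lymphomas derived from them divide fast, so these transcripts are abundant in them. In RNA from whole cultures, a larger share of cells in G2/M and more of a transcript per cell cannot be told apart.

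In Pfeiffer, 23 of the 50 mitosis genes were higher after BCL6 siRNA and 0 were lower at a limma adjusted p under 0.05. Over all genes tested, 7.9% were called higher and 8.31% lower. At an unadjusted p under 0.05, 32 of the 50 were higher and 0 lower, against 14.2% and 14.9% of all genes. The median change of the 50 was 0.20 on the log2 scale, or 1.15-fold, against 0.00 over all genes tested. Changes were small, since 1 gene, BUB1, exceeded 1.5-fold. The siRNA arrays lay above all control arrays for 30 of the 50, against 16% of all genes, and below all of them for 0, against 16.9%. Those 30 were the 23 called genes and 7 others. Of all 50, 47 had a positive change, and the 3 others, CDC25B, BUB3 and CDC20, had changes of -0.11, -0.07 and -0.05 that did not pass the test.

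The shift was seen on each array. Relative to the Pfeiffer control mean, the median over the 50 genes was 0.23, 0.18 and 0.20 on the siRNA arrays, against -0.04, 0.06 and -0.01 on the control arrays. Without siRNA replicate 3, the array that stood apart in its GAPDH ratio, 23 of the genes were called, of which 20 were among the original 23. Without Pfeiffer control replicate 1, 14 were called, all among the original 23.

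**Figure D1:**
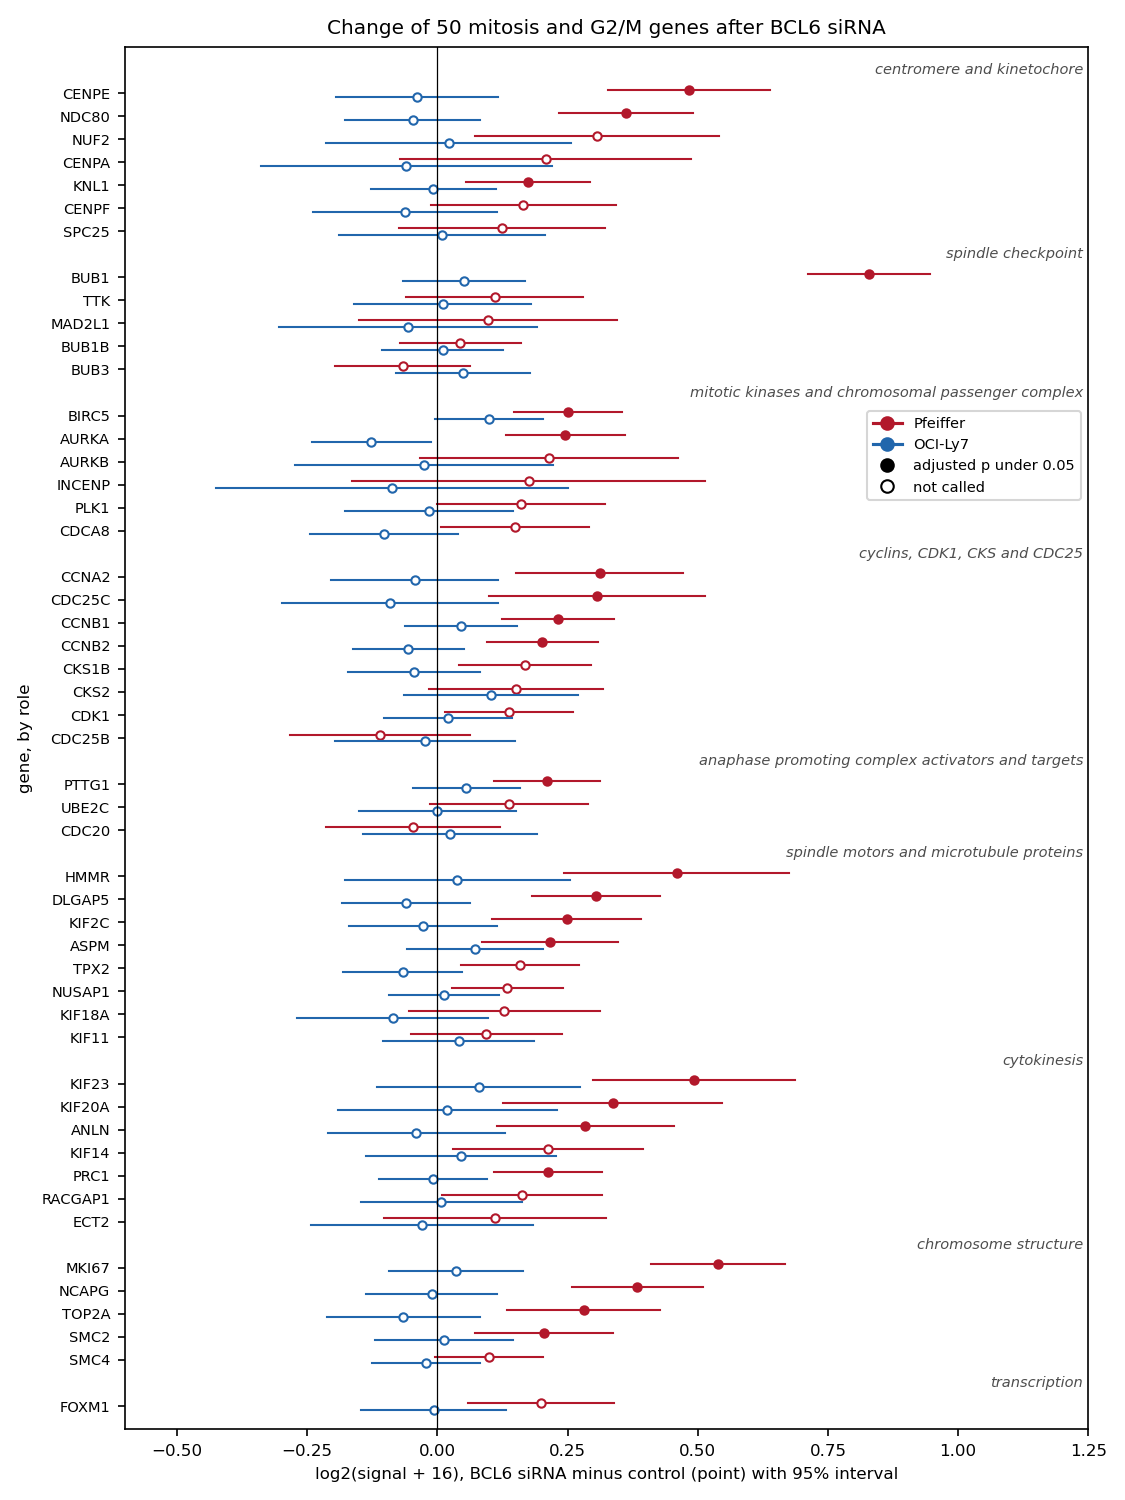
Change of each of the 50 genes, as BCL6 siRNA minus control in log2(signal + 16) on the horizontal axis, with its 95% interval as a bar, for Pfeiffer (red) and OCI-Ly7 (blue), grouped by role. Filled points passed an adjusted p under 0.05: 23 in Pfeiffer and 0 in OCI-Ly7.

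**Figure D2:**
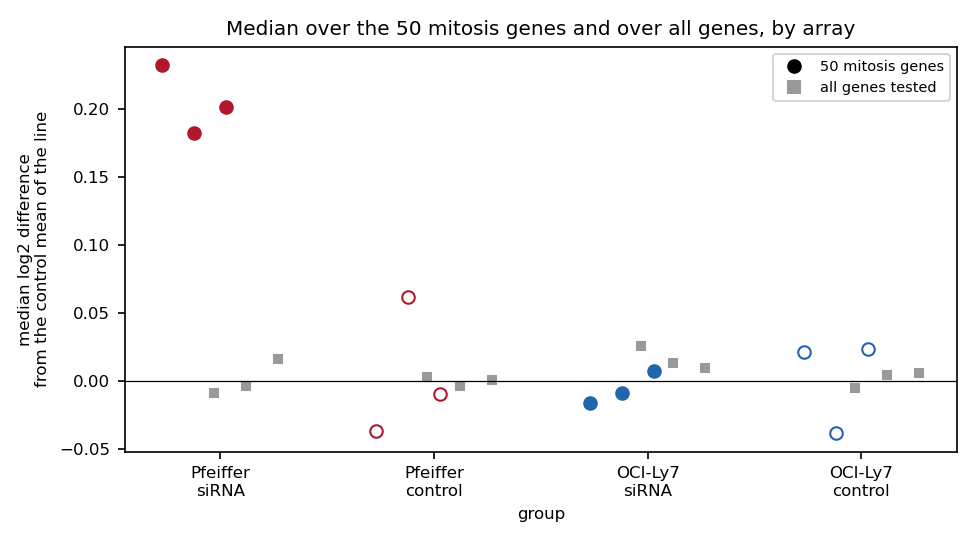
Each array's difference from the control mean of its line in log2(signal + 16), as the median over the 50 mitosis genes (circles) and over all genes tested (grey squares). The 3 Pfeiffer siRNA arrays have medians of 0.23, 0.18 and 0.20, and the other 9 arrays have medians between -0.04 and 0.06.

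Promoters were read because the genes moved together in Pfeiffer. RefSeq promoters (GRCh38.p14, 250 bases before the start and 50 from it) matched 41 of the 50 genes, and where several starts were listed the first was taken. The cell cycle genes homology region (CHR) is the element that the DREAM and B-MYB-MuvB complexes bind. Its letters, TTTGAA or the variant TTCGAA on either strand, were found in 32 of the 41, or 78.0%, against 11.5% of the 8209 tested genes with a promoter. Within 60 bases before to 20 after the start the share was 58.5% of the mitosis genes, against 2.84% of tested genes. A CCAAT box (CCAAT on either strand), the letters NF-Y recognises, was in 73.2% of the mitosis genes and 38.5% of tested genes, and both elements together were in 61.0% and 5.10%. An E2F-type motif (TTCGCGC, its relative TTGGCGC or its relative TTCCCGC, on either strand) was in 29.3% and 18.6%.

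A CHR form was present in 13 of 20 genes that were called higher in Pfeiffer, or 65.0%, and in 19 of 21 that were not, or 90.5%. The core shared by BCL6 and STAT factors, TTCNNNGAA on either strand, was in 4 of the 41, or 9.76%, against 6.15% of tested genes. The 4 genes with this core were NUF2, PTTG1, KIF2C and KIF20A. Only NUF2 also held a CHR form, which its core did not overlap. Letter matches describe these windows only and do not show that a factor binds.

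The sequences below set genes that were called higher beside genes that were not, and the genes shown were chosen after their values were seen. Capitals mark CHR forms and CCAAT boxes (ATTGG on the other strand), and adjoining or overlapping matches run together. The first 6 sequences are the 120 bases before the start. MKI67, NCAPG, CCNB2 and HMMR were called higher in Pfeiffer, and PLK1 and CDC20 were not.
MKI67 (chr10:128126424-128126543, minus strand): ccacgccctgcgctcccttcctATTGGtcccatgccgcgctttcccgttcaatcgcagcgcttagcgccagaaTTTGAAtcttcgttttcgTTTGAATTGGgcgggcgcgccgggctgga
NCAPG (chr4:17810859-17810978, plus strand): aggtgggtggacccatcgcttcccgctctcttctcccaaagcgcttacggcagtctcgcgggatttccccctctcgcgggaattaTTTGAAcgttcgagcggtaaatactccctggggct
CCNB2 (chr15:59105026-59105145, plus strand): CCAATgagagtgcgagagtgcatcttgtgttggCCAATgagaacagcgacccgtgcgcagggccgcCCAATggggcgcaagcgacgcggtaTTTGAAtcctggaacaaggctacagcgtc
HMMR (chr5:163460512-163460631, plus strand): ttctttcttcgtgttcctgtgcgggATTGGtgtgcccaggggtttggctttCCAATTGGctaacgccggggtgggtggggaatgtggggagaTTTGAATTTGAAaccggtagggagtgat
PLK1 (chr16:23678769-23678888, plus strand): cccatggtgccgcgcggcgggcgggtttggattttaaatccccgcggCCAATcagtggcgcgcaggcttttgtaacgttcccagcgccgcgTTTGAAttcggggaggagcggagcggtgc
CDC20 (chr1:43358861-43358980, plus strand): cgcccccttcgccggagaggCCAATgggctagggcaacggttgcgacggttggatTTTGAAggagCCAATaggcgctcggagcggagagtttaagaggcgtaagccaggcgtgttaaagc
In CCNB2 and in PLK1 the CHR began 29 bases before the start, although CCNB2 was called higher and PLK1 was not. In BUB1 and NDC80, both called higher, the CHR letters lay at the start itself, and the 15 bases on each side of it are shown.
BUB1 (chr2:110678049-110678078, minus strand): gcggctgcgcggggtaTTCGAAtcggcggc
NDC80 (chr18:2571542-2571571, plus strand): ccggcggagaatTTCAAATTCGAAcggctt

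The counts by role stand beside 7.9% of all genes tested called higher in Pfeiffer and 8.31% called lower, and no role holds more than 8 genes. Of the 7 centromere and kinetochore genes, 3 were higher in Pfeiffer and 0 lower, with a median change of 0.21. CENPE, a kinesin that carries chromosomes to the spindle equator, had levels of 10.65, 10.60 and 10.59 on the siRNA arrays, against 9.99, 10.17 and 10.22 on the control arrays. All siRNA arrays were above all controls, and the change was 0.48 ± 0.07 (SE, n = 3 a group), 1.40-fold, with a limma adjusted p of 0.000326. NDC80, a subunit of the complex that grips microtubules, had 11.22, 11.20 and 11.22, against 10.85, 10.97 and 10.73. Its change was 0.36 ± 0.06 (limma adjusted p = 0.000755), and again the arrays did not overlap.

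The partners of NDC80 in that complex, NUF2 and SPC25, had changes of 0.31 and 0.12 that did not pass the test (adjusted p = 0.0717 and 0.42). NUF2 arrays overlapped, at 10.94, 11.16 and 10.72 with siRNA and 10.60, 10.87 and 10.43 in controls. KNL1, the scaffold on which BUB1 docks, had a change of 0.17 with an adjusted p of 0.0456. That call was lost when any of 11 of the 12 arrays was left out (adjusted p up to 0.146). CENPA, the histone H3 variant of centromeres, and CENPF, a large protein of the outer kinetochore, had changes of 0.21 and 0.17 that did not pass.

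BUB1 was the 1 called gene among the 5 of the spindle checkpoint, whose median change was 0.10. That is 20% of them, near the 16.2% of all genes called in either direction. BUB1 encodes the checkpoint kinase that also marks centromeric histone H2A. Its levels were 12.06, 11.93 and 11.96 with siRNA, against 11.07, 11.21 and 11.18 in Pfeiffer controls. The gap between the groups exceeded the spread within either, and the change was 0.83 ± 0.05, or 1.78-fold, with a limma adjusted p of 1.03e-07. BUB1B, MAD2L1 and BUB3, which encode parts of the inhibitor that the checkpoint makes, had changes of 0.04, 0.10 and -0.07. TTK, the kinase that starts checkpoint signalling, had 0.11, and none of these 4 passed the test.

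BUB1 had 2 probe sets bright enough to test, with changes of 0.83 and 0.88. With the mean over all 5 BUB1 probe sets, 3 of them dim, the limma adjusted p was 0.0819.

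Among the mitotic kinases and the chromosomal passenger complex, 2 of 6 genes were higher and 0 lower, with a median change of 0.20. AURKA, the kinase of the spindle poles, had 12.24, 12.25 and 12.20 on the siRNA arrays, against 11.90, 12.01 and 12.04 on the control arrays. BIRC5, the passenger protein survivin, had 12.53, 12.46 and 12.58, against 12.25, 12.31 and 12.27. Neither gene's arrays overlapped, and both changes were 0.25 ± 0.05 (limma adjusted p = 0.00544 for AURKA and 0.00247 for BIRC5). When probe sets that can bind related transcripts were left out, BIRC5 was read by another probe set with a change of -0.086 (adjusted p = 0.605).

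AURKB, the kinase of the passenger complex, and its partners INCENP and CDCA8 had changes of 0.21, 0.18 and 0.15, none of which passed. For AURKB siRNA replicate 3, at 10.75, lay far above the others, at 10.21 and 10.20, which were within the control range of 10.07 to 10.26. PLK1, the polo kinase that acts from mitotic entry to cytokinesis, had 11.77, 11.84 and 11.99, against 11.67, 11.85 and 11.61. These arrays overlapped, and the change of 0.16 had a limma adjusted p of 0.175.

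Cyclins, CDK1, the CKS proteins and the CDC25 phosphatases gave 4 of 8 higher and 0 lower, with a median change of 0.18. The cyclins of mitosis were all called on their brightest probe sets. CCNA2, cyclin A2, had 12.34, 12.18 and 12.07, against 11.83, 11.99 and 11.83, a change of 0.31 ± 0.08 (limma adjusted p = 0.0108). CCNB1, cyclin B1, had 13.49, 13.41 and 13.37, against 13.12, 13.28 and 13.19, a change of 0.23 ± 0.05 (adjusted p = 0.00588). For CCNB2, cyclin B2, the levels were 13.45, 13.37 and 13.44, against 13.18, 13.29 and 13.19, a change of 0.20 ± 0.05 (adjusted p = 0.0127). The 3 changes were of similar size, and for each the siRNA arrays lay above the controls.

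CCNA2 lost its call without Pfeiffer siRNA replicate 1 (adjusted p = 0.0508), and CCNB2 lost it without Pfeiffer control replicate 1 (0.0604). CDC25C, a phosphatase that activates CDK1, had a change of 0.31 with an adjusted p of 0.0435, a call lost when any of 8 arrays was left out (up to 0.185). CDC25B, its relative, had -0.11 (adjusted p = 0.412). CDK1 itself had 0.14 on its brightest probe set (adjusted p = 0.125). CKS1B and CKS2, small proteins that bind CDK complexes, had 0.17 and 0.15, and neither passed.

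Of 3 genes tied to the anaphase promoting complex, PTTG1 was higher and the other two were not called. PTTG1 is securin, the inhibitor of separase. It had 14.14, 14.04 and 14.15, against 13.87, 13.91 and 13.92, a change of 0.21 ± 0.05 (limma adjusted p = 0.00768). UBE2C, the ubiquitin-conjugating enzyme of the complex, had 0.14 (adjusted p = 0.218), and its activator CDC20 had -0.05 (adjusted p = 0.76). The CDC20 arrays overlapped, at 10.52, 10.55 and 10.83 with siRNA and 10.57, 10.77 and 10.70 in controls.

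Spindle motors and microtubule proteins gave 4 of 8 higher and 0 lower, with a median change of 0.19. HMMR, a spindle and hyaluronan-binding protein, had 12.95, 12.86 and 12.49, against 12.13, 12.49 and 12.31. Its lowest siRNA array and its highest control array nearly touched, and the change was 0.46 ± 0.10 (limma adjusted p = 0.00612). DLGAP5, which stabilises kinetochore fibres, had 11.95, 11.80 and 11.79, against 11.56, 11.61 and 11.47, a change of 0.30 (adjusted p = 0.00207) with a clear gap between the groups.

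KIF2C, a kinesin that takes microtubules apart at centromeres, had a change of 0.25 (adjusted p = 0.0199). That call was lost without Pfeiffer control replicate 1 or 2 or siRNA replicate 3 (up to 0.0916). ASPM, a spindle pole protein, had 0.22 (adjusted p = 0.0256), and its call was lost without any of 4 Pfeiffer arrays (up to 0.116). TPX2, the activator of AURKA at the spindle, NUSAP1, a microtubule bundler, and the kinesins KIF18A and KIF11 had changes of 0.16, 0.13, 0.13 and 0.09 that did not pass.

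Cytokinesis genes gave 4 of 7 higher and 0 lower, with a median change of 0.21. KIF23, the kinesin of the centralspindlin complex, had 10.22, 10.18 and 10.38, against 9.83, 9.82 and 9.66. The arrays did not overlap, and the change was 0.49 ± 0.09, or 1.41-fold (limma adjusted p = 0.00176). PRC1, which crosslinks the microtubules of the central spindle, had 12.28, 12.29 and 12.37, against 12.08, 12.13 and 12.09, a change of 0.21 (adjusted p = 0.00799).

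KIF20A, a kinesin of the central spindle, had 0.34 (adjusted p = 0.0297) and lost its call without any of 5 Pfeiffer arrays (up to 0.0993). ANLN, the scaffold anillin of the cleavage furrow, had 0.28 (adjusted p = 0.0241) and lost it without Pfeiffer control replicate 1 or 3 or siRNA replicate 1 (up to 0.109). RACGAP1, the partner of KIF23 in centralspindlin, ECT2, the exchange factor it recruits, and the kinesin KIF14 had changes of 0.16, 0.11 and 0.21, none of which passed.

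Chromosome structure genes gave 4 of 5 higher and 0 lower, with a median change of 0.28. MKI67, the Ki-67 protein that coats mitotic chromosomes and serves as a proliferation marker, had 11.83, 11.62 and 11.79, against 11.17, 11.27 and 11.18. The groups were far apart relative to their spread, with a change of 0.54 ± 0.06, or 1.45-fold (limma adjusted p = 2.13e-05). NCAPG, a subunit of condensin I, had 11.13, 11.11 and 11.10, against 10.71, 10.80 and 10.68, a change of 0.38 ± 0.06 (adjusted p = 0.00039). TOP2A, which untangles DNA before segregation, had 12.98, 12.86 and 12.72, against 12.46, 12.70 and 12.55, a change of 0.28 (adjusted p = 0.0118). The gap was narrow for TOP2A, and its call was lost without replicate 1 of either Pfeiffer group (up to 0.0628).

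SMC2 and SMC4 form the core of condensin. SMC2 had a change of 0.20 (adjusted p = 0.0362), lost without any of 4 Pfeiffer arrays (up to 0.139), and SMC4 had 0.10 (adjusted p = 0.192). FOXM1, the transcription factor that drives many of these genes, had 10.58, 10.55 and 10.77, against 10.41, 10.41 and 10.48. Its arrays did not overlap, and its change of 0.20 had a limma adjusted p of 0.0513.

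Of the 23 called genes, 13 were read by a probe set of the type that can bind related transcripts and 10 by another. Of the 23 calls in Pfeiffer, 13 held when each of the 12 arrays was left out in turn. Under the other alternatives that could test them, 9 held in all, and 8 held throughout, namely CENPE, NDC80, PTTG1, DLGAP5, HMMR, PRC1, MKI67 and NCAPG. Of these 8, PTTG1, PRC1 and MKI67 had only probe sets of the type that can bind related transcripts. The alternative without such probe sets could not test those genes.

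In OCI-Ly7, 0 of the 50 mitosis genes were called by limma, against 2.68% of all genes tested (1.69% higher and 0.991% lower). At an unadjusted p under 0.05, 0 were higher and 1 lower, against 9.48% and 6.02% of all genes. The median change was -0.01, against 0.01 over all genes, with 23 positive and 27 negative. The gene with the smallest adjusted p was AURKA, at 12.50, 12.44 and 12.56 on the siRNA arrays and 12.66, 12.58 and 12.65 on the control arrays. All 3 siRNA arrays were below the controls, with a change of -0.13 and an adjusted p of 0.266. On the other tested AURKA probe set the change was 0.03, and the arrays overlapped. Among the 50, the siRNA arrays lay above all controls for 2 genes, BIRC5 and CCNB1, against 13.4% of all genes, and below for 1, AURKA, against 9.42%.

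The 95% intervals of the 50 changes in OCI-Ly7 reached from -0.43 to 0.27. For 40 of the 50 the interval lay below 0.20, the median change in Pfeiffer. BUB1 in OCI-Ly7 had 12.81, 12.80 and 12.84 with siRNA, against 12.81, 12.73 and 12.75 in controls, a change of 0.05. MKI67 had 11.98, 11.98 and 11.94, against 11.93, 11.91 and 11.96, a change of 0.04. CENPE had 11.10, 11.12 and 10.99, against 11.08, 11.07 and 11.18, a change of -0.04. In each of these the groups overlapped.

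The change in Pfeiffer minus the change in OCI-Ly7 was tested directly. It was positive at a limma adjusted p under 0.05 for 9 of the 50 genes and negative for 0, against 3.74% and 5.06% of all genes, or 8.8% in either direction. These 9 were BUB1, MKI67, CENPE, AURKA, NDC80, NCAPG, DLGAP5, CCNB2 and TOP2A. The differences were 0.78 ± 0.08 for BUB1 (adjusted p = 1.72e-05) and 0.50 ± 0.08 for MKI67 (0.0017). The other 7 ran from 0.26 for CCNB2 to 0.52 for CENPE. For the 14 remaining genes called in Pfeiffer the difference between the lines did not pass on the brightest probe set. Among them HMMR had a difference of 0.42 (0.083), KIF23 0.41 (0.0596) and CCNA2 0.36 (0.0514). On the second brightest probe set CCNA2 had 0.45 (limma adjusted p over all probe sets = 0.00426), HMMR 0.40 (0.0257) and KIF2C 0.29 (0.0288). These 3 passed, KIF23 with 0.52 (0.181) did not, and no other tested probe set of the 14 genes passed.

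BIRC5, PTTG1 and CCNB1 had smaller differences, of 0.15, 0.15 and 0.19, none of which passed. CCNB2 and TOP2A lost their call for the difference when any of 7 and 10 arrays were left out, at limma adjusted p-values of up to 0.0865 and 0.0974. When the probe sets of a gene were averaged, BUB1 (difference 0.30, adjusted p = 0.355), AURKA (0.18, 0.625), CCNB2 and TOP2A were not called. Without probe sets that can bind related RNAs the AURKA difference was -0.057 (0.963), and on its second brightest probe set it was 0.22 (0.124 over all probe sets). BCL6 itself fell further in Pfeiffer, by 0.54 more (adjusted p = 0.00496), so the lines also differed in the size of the knock-down, and its part in the differences was not tested.

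**Figure D3:**
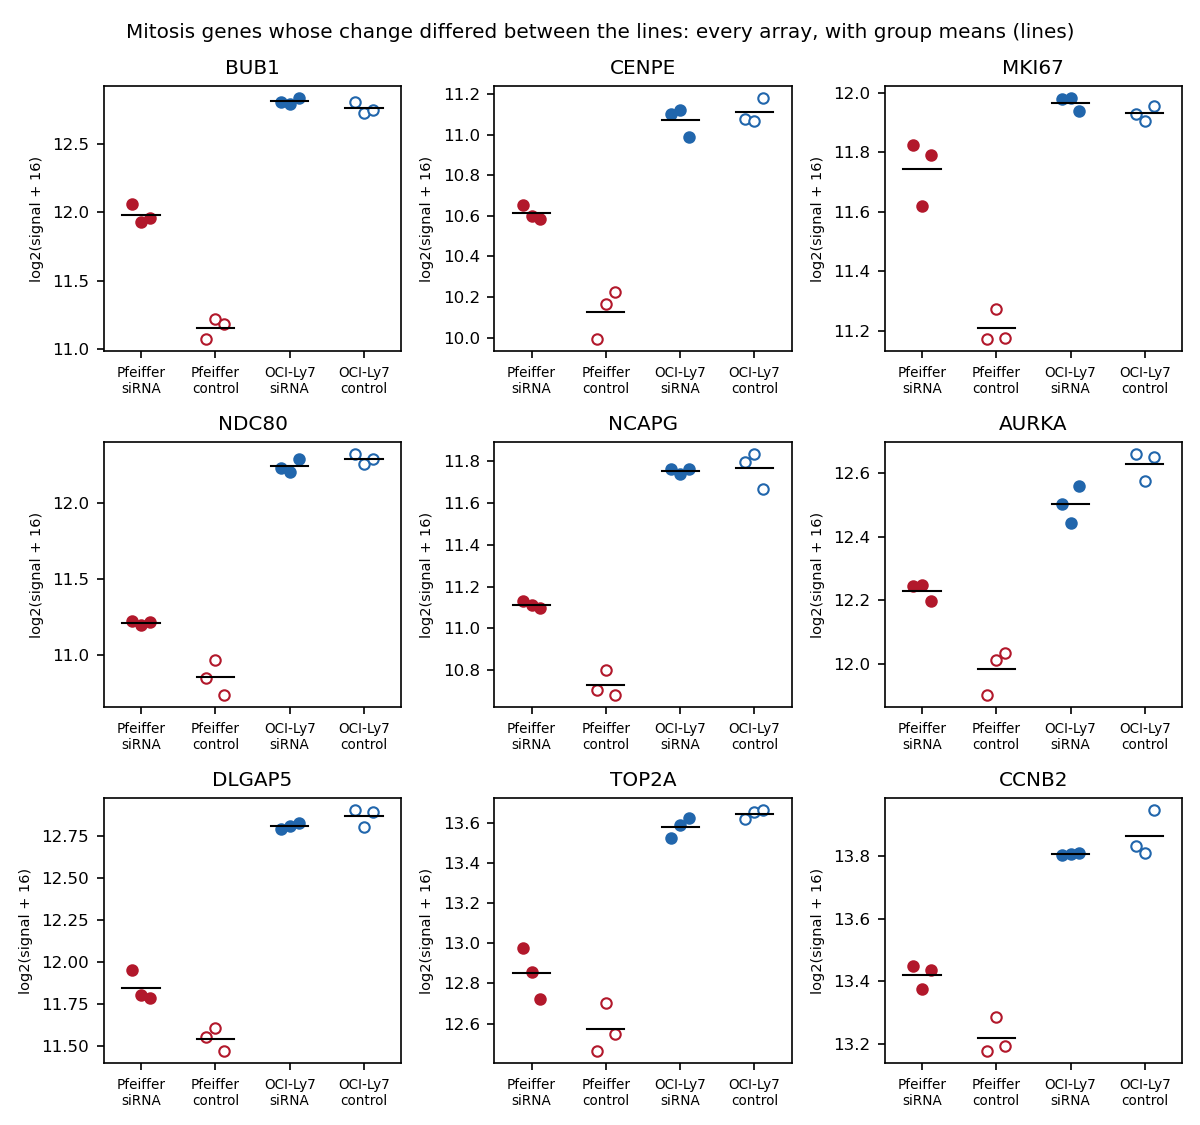
Levels in log2(signal + 16) of the 9 genes whose change differed between the lines, with 1 point per array and a line at each group mean, and a vertical scale of its own in each panel. In Pfeiffer all siRNA arrays lie above the controls for each gene. In OCI-Ly7 the only gene of the 9 without overlap is AURKA, with siRNA below control.

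The lines also differed before any change, and line and any difference in handling cannot be told apart. In controls, 46 of the 50 genes were lower in Pfeiffer than in OCI-Ly7 and 1 was higher, against 37.1% and 42.5% of all genes tested, or 79.6% in either direction. The median was -0.96 (Pfeiffer minus OCI-Ly7), or 1.95-fold more in OCI-Ly7, against 0.07 over all genes. AURKB was lowest in Pfeiffer relative to OCI-Ly7, with 10.26, 10.18 and 10.07 in Pfeiffer controls and 12.45, 12.36 and 12.40 in OCI-Ly7 controls. CENPF followed with a difference of -1.96. BIRC5 was the exception, higher in Pfeiffer by 0.21, and BUB1B, PLK1 and CCNB1 were not called.

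After BCL6 siRNA the Pfeiffer means of 46 of the 50 genes were still below the OCI-Ly7 control means, with a median of -0.71. BUB1 reached 11.98 in Pfeiffer with siRNA, against 12.76 in OCI-Ly7 controls. Of the 46 genes lower in Pfeiffer controls, 21 were called higher after siRNA and 25 were not.

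**Figure D4:**
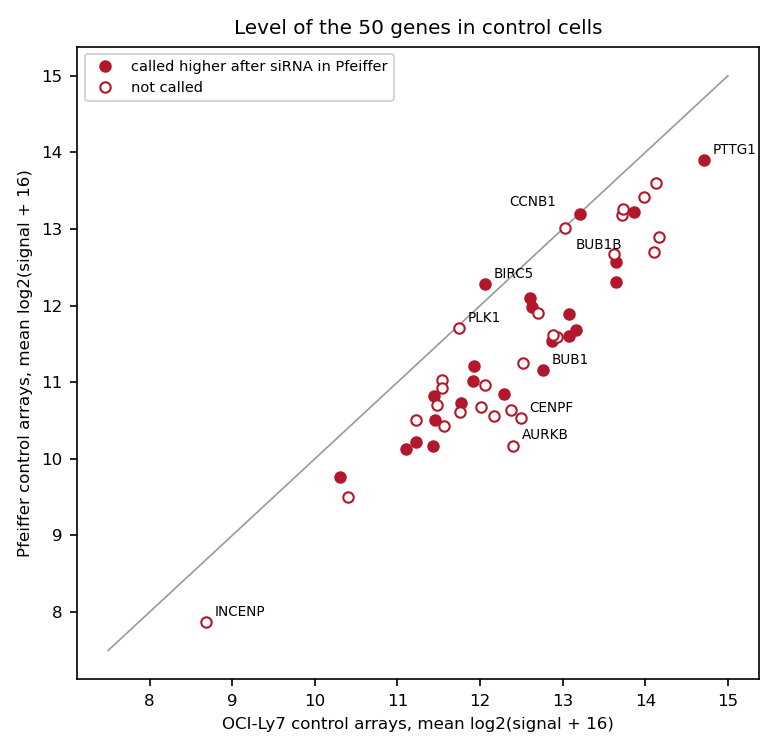
Mean level of each of the 50 genes on the Pfeiffer control arrays (vertical axis) against the OCI-Ly7 control arrays (horizontal axis), both in log2(signal + 16), with filled points for the 23 genes called higher after siRNA in Pfeiffer and a line where both levels are equal. Of the 50 genes, each on its brightest probe set, 49 lie below the line, and BIRC5 lies above it.

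Several genes were read by more than 1 probe set. The 50 genes had 100 probe sets of a single symbol, of which 88 were bright enough to test, and 25 genes had at least 2. In Pfeiffer all tested probe sets were positive for 20 of these 25 genes and all were called higher for 7. For 11 genes at least 1 probe set was called and at least 1 was not, and 0 had a probe set called lower. The second brightest probe set was positive in 24 of 25, with a median change of 0.26.

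MKI67 had 0.58 on its second probe set, which was called, and 0.12 and 0.31 on the other two, which were not (limma adjusted p over all probe sets = 0.452 and 0.179). CCNA2 had 0.33 on its second. CDK1 was not called on its brightest probe set, at 0.14, but its second had 0.34 (0.00261). NUSAP1 likewise had 0.13 on the first and 0.28 on the second (0.00766). TOP2A had 0.28 on the first and 0.11 on the second (0.237), so its call depended on which probe set was read. AURKB had 1.22 on a second, much dimmer probe set (0.00313), against 0.21 on the first.

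**Figure D5:**
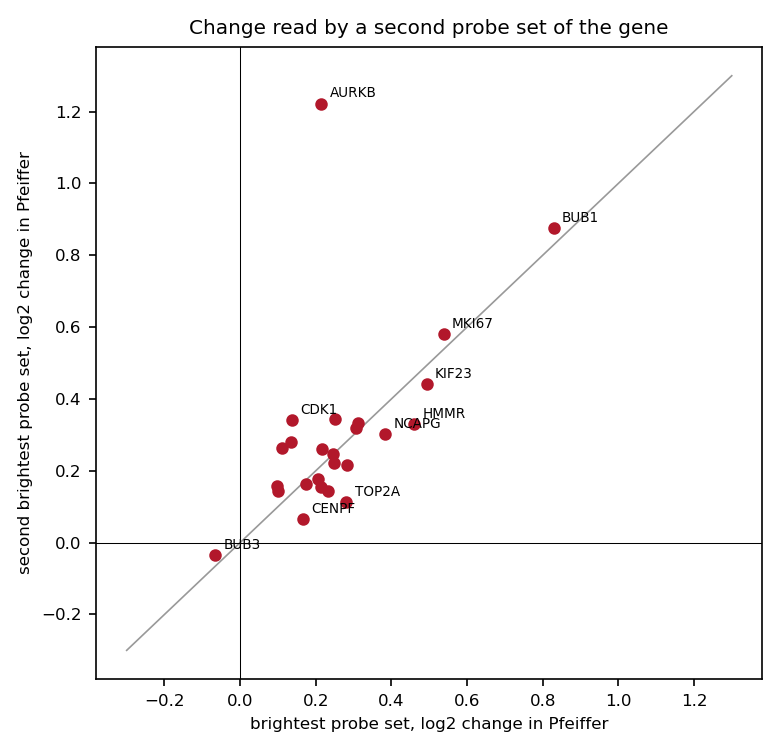
Change in Pfeiffer (BCL6 siRNA minus control, log2(signal + 16)) on the second brightest probe set against that on the brightest, for the 25 genes with at least 2 tested probe sets. All but BUB3 have a positive change on the second probe set, and AURKB stands apart at 1.22.

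Other genes of mitosis were read from lists by role, of which 117 were tested. In Pfeiffer 23 were higher and 8 lower, against 7.9% and 8.31% of all genes, and in OCI-Ly7 2 were higher and 1 lower, close to the 1.69% and 0.991% of all genes. Other centromere and kinetochore genes had 8 of 29 higher and 0 lower. ZWILCH, a part of the complex that brings dynein and checkpoint proteins to kinetochores, had 12.25, 12.25 and 12.34, against 11.74, 11.81 and 11.73 in Pfeiffer. Its groups did not overlap, and the change was 0.52 ± 0.06 (limma adjusted p = 1.95e-05), against -0.10 in OCI-Ly7. ITGB3BP and CENPN, proteins of the inner kinetochore, rose by 0.25 and 0.26. ZWINT, which links to KNL1, was called in both lines, at 0.26 in Pfeiffer (0.00401) and 0.22 in OCI-Ly7 (0.0384).

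Other spindle and cytokinesis genes had 9 of 22 higher and 0 lower in Pfeiffer, against 7.9% and 8.31% of all genes. The 4 with the lowest p were the kinesin KIFC1 at 0.61, the microtubule destabiliser STMN1 (stathmin) at 0.29, the spindle protein SPAG5 at 0.35 and the kinesin KIF15 at 0.31. Condensin and cohesin genes beyond those above had 1 of 16 higher, or 6.25%, and 1 lower, near the shares of all genes. The higher gene was NCAPG2 of condensin II at 0.49, and the lower was STAG2 of cohesin at -0.23. The core and regulators of the anaphase promoting complex had 2 of 15 higher and 2 lower, or 26.7% in either direction, against 16.2% of all genes. FBXO5, its inhibitor EMI1, had 0.43 and the subunit CDC27 0.18, while the subunits ANAPC11 and CDC26 had -0.26 and -0.28.

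Mitotic entry regulators had 2 of 19 higher, or 10.5%, and 2 lower, near the 7.9% and 8.31% of all genes. The kinase gene NEK7 had 10.83, 10.73 and 10.51, against 9.63, 9.52 and 9.60 in Pfeiffer, a change of 1.11 ± 0.08 (limma adjusted p = 2.92e-07), and 0.41 in OCI-Ly7 (0.0137). Both lines thus moved the same way for NEK7, and the difference of 0.69 passed as well (0.00132). CCNF, cyclin F, had 0.38 in Pfeiffer, and PPP2R2A, a subunit of the phosphatase PP2A, and ENSA, its inhibitor, had -0.19 each.

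Of 16 DREAM and B-MYB genes, 1 was higher in Pfeiffer, or 6.25%, and 3 were lower, against 7.9% and 8.31% of all genes. In either direction 25% were called, against 16.2% of all genes. MYBL1, which encodes the A-MYB factor of germinal centre B cells, had 8.31, 8.32 and 8.15 with siRNA, against 9.24, 9.29 and 9.02 in controls, a change of -0.92 (limma adjusted p = 3.44e-06). In OCI-Ly7 it had 11.87, 11.79 and 11.86, against 12.24, 12.43 and 12.26, a change of -0.47 (0.00914), so it fell in both lines without overlap of the arrays. E2F5, a repressor E2F, fell by 0.63 in Pfeiffer (6.79e-06) and was not called in OCI-Ly7 (0.985). TFDP1 and TFDP2, which pair with E2F factors, had 0.40 and -0.17 in Pfeiffer, both called.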

How the data were processed

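The authors deposited log2 values for 54675 probe sets on 12 arrays; per the submitters' processing notes MAS5 and affy were used, with no version given. Back on the linear scale each array had a trimmed mean signal of 500.0 (2% off either end), so arrays had been scaled by the authors and were not normalized again. Because MAS5 takes off mismatch signal, values of dim probe sets are unsteady. Symbols came from the platform annotation, where 41091 probe sets carried 1 symbol.

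Changes on the log2(signal + 16) scale are understated for dim genes. The upper 0.5 of genes, by the higher of the 2 line means, was tested. limma 3.58.1 (R 4.3.3; lmFit, eBayes with trend) used 4 group means over all arrays, with two-sided p-values adjusted by Benjamini-Hochberg over 9888 genes, or over 17659 probe sets where stated. The code was tested on simulated data. SE is limma's, and n is 3 arrays a group throughout. The 50 genes and the other lists were chosen with earlier results of these data known. Of each other list, up to 4 called genes with the lowest p in Pfeiffer are named. Alternatives were quantile normalization, other pseudocounts, filters and probe set rules, limma without trend, with array weights, per line or with a replicate block, and each array left out. Of 121 other mitosis genes, 117 were analysed here.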

Additional observations from a re-analysis of the deposited data

Results flagged for a closer look

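For 9 mitosis genes the change in Pfeiffer exceeded that in OCI-Ly7 by limma's test of the difference, on the log2 scale. The difference was 0.78 for BUB1, 0.50 for MKI67, 0.52 for CENPE, 0.37 for AURKA, 0.41 for NDC80, 0.39 for NCAPG, 0.36 for DLGAP5, 0.26 for CCNB2 and 0.35 for TOP2A (adjusted p = 1.72e-05 to 0.0378). BCL6 differed the other way, by -0.54 (adjusted p = 0.00496), since it fell more in Pfeiffer.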

How the results depend on the processing

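The count of mitosis genes called in OCI-Ly7 was 0 under every alternative run. In Pfeiffer the count was 10 of 34 testable genes when probe sets able to bind related transcripts were dropped, and it ranged from 14 to 23 when 1 array was left out. Without those probe sets 30 of 34 differed between the controls, BIRC5 in Pfeiffer had a change of -0.086 and the AURKA difference was -0.057 (adjusted p = 0.963). Fewer genes and other, often dimmer, probe sets are tested there. Quantile normalization gave 16 genes with a difference between the lines, against 9, and leaving out 1 array gave 7 to 12. Over all genes, the mean of all probe sets gave 1027 calls in Pfeiffer, against 1603, and leaving out 1 array gave 1118 to 1611. In OCI-Ly7, with 265 calls over all genes, there were 164 without a filter, 133 with the mean of probe sets, 169 without probe sets for related transcripts, 142 without a trend and 101 to 337 with 1 array left out. The causes were not tested. Replicate numbers did not pair the arrays, whose same-numbered deviations correlated at -0.08 to 0.08. With the replicate block 19 mitosis genes were called in Pfeiffer, 7 for the difference and 139 of all genes in OCI-Ly7. Fits of each line alone give no difference between lines. Of the changes of single genes, 3250 values did not change in call, 109 lost the call and 50 gained it. Another 2 changed direction with a call in at least 1 fit. A change of direction with no call in either fit was counted among the 3250. Dim probe sets, near background, limit the small changes.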
